A study of Mus musculus with 36 samples.

Results

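The cytosolic ribosomal protein genes encode the protein part of the ribosome and were followed here across 12 culture conditions of mouse embryonic stem cells. They were taken from the deposited count tables by symbol, as rows named Rpl or Rps with a number and an optional a or x, together with Rplp0, Rplp1, Rplp2 and Rpsa. This gave 75 of 21516 genes, of which 45 belong to the large and 30 to the small subunit. Genes whose symbol does not follow that pattern, such as Fau and Gnb2l1, are described separately. After genes with low counts were set aside, 74 of the 75 remained among 13498 tested genes; the exception was Rpl34, which had at most 0.742 CPM (counts scaled to library size) in any library.

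RNA was measured by 3' sequencing in 36 libraries, 3 per condition, which the submitters describe as biological triplicates. All cells were of 1 embryonic stem cell line of the 129/sv strain that carries FUCCI transgenes, fluorescent reporters of the cell cycle, and all were grown in 15% serum and lysed after 72 h of treatment. RA cells were grown without leukemia inhibitory factor (LIF) and with 1 uM retinoic acid, and ND cells, labelled as normal differentiation, without LIF and with nothing added. Sorb300 cells kept LIF and received 300 mM sorbitol. The other 8 treated groups also kept LIF and received BP at 1 or 4 uM (BP1, BP4), cortisol at 10 or 60 uM (Cort10, Cort60), DEP at 5 or 10 uM (DEP5, DEP10) or PFOA at 60 or 100 uM (PFOA60, PFOA100), of which the lower dose is labelled as LOAEL (lowest observed adverse effect level) and the higher one held back growth by 75%. BP and DEP are named as in the labels. NS cells, labelled as normal stemness, had LIF at 1000 U/mL and no treatment, and served as the control for all others.

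A ribosome holds 1 copy of nearly every ribosomal protein, and cells keep the amounts of these proteins in balance. Their mRNAs are among the most abundant in growing cells and carry a stretch of C and T bases at the very 5' end, the terminal oligopyrimidine (TOP) motif, through which the kinase complex mTORC1 and the RNA-binding protein Larp1 control their translation and stability. Proteins left unassembled are degraded, and a few of them, Rpl5 and Rpl11 among them, bind the p53 inhibitor Mdm2 when ribosome assembly fails.

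The annotated starts were searched for such a stretch. RefSeq promoter windows (assembly GRCm38.p6) were found for 55 of the 75 genes, and a run of at least 8 bases that are all C or T, read on the gene's own strand, covered the annotated first base of the transcript in 17 of the 55 genes (30.9%), against 1240 of 27025 genes of the whole table (4.6%). Within 25 bases on either side of the start, such a run was present in 60.0% of the ribosomal protein genes and 27.1% of all genes. The 6 genes below have the run over the first base and are shown because results on each of them follow. Each line holds 30 bases, 15 before the annotated start and 15 from it, 5' to 3' on the gene's strand, with the C and T run in capitals. No run says only that these letters are not at the annotated start, since annotated starts can be some bases off.
Rplp2, chr7:141447636-141447665, plus strand: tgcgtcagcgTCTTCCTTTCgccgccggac
Rps18, chr17:33955651-33955680, minus strand: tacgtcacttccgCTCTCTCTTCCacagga
Rpl38, chr11:114668565-114668594, plus strand: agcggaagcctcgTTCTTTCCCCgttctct
Rps27, chr3:90213634-90213663, minus strand: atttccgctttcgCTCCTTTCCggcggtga
Rps6, chr4:86857353-86857382, minus strand: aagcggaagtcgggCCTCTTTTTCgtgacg
Rpl35a, chr16:33056467-33056496, plus strand: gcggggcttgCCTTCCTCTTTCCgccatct

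The smallest library had 1848254 counts and the largest 7288084 (median 4822563). A count of 3 corresponded to 0.41 to 1.62 CPM, which single low genes such as Rpl29 approached. Mouse ribosomal protein genes have many processed pseudogenes, and how reads matching several places were counted is not given in the sources used here. Values of single genes are therefore uncertain, and levels were not compared between genes. The embryonic stem cell label held in NS, where 10 marker genes summed to 3502 to 4333 CPM, and less so in RA, where they summed to 522 to 863 CPM.

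Ribosomal protein genes made up a large share of all counts, and that share was lowest in RA and Sorb300. It was 9.32% ± 0.98 in RA, 13.5% ± 1.42 in ND and 9.60% ± 0.85 in Sorb300, against 15.5% ± 1.96 in NS (SD, n = 3 each). The 3 RA libraries had 8.19%, 9.80% and 9.98%, the 3 Sorb300 libraries 8.65%, 10.3% and 9.85%, and the 3 NS libraries 14.73%, 13.97% and 17.68%. No RA or Sorb300 library reached the lowest NS library, while the ND libraries, at 12.6%, 12.7% and 15.2%, overlapped those of NS. In the 8 toxicant groups the mean share lay between 14.5% in PFOA60 and 15.8% in DEP5, close to that of NS. The 95% Wilson interval of a library's share was at most 0.113 percentage points wide, so that counting error is small beside the differences between libraries.

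**Figure D1:**
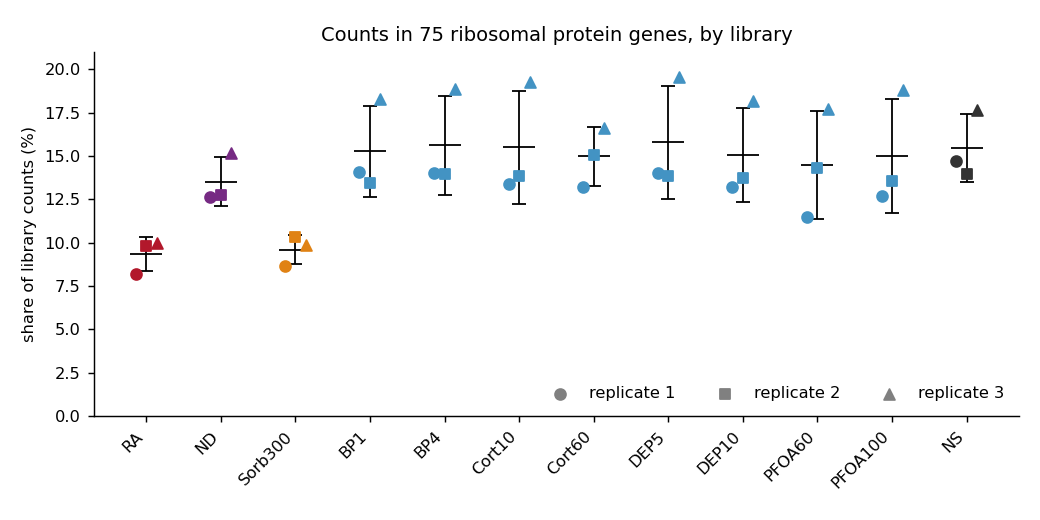
Share of each library's counts (y axis, %) that fell in the 75 ribosomal protein genes, for 12 groups (x axis); symbols are single libraries, bars the mean and SD of 3. RA and Sorb300 libraries lie between 8.19% and 10.3%, below all others, and in every toxicant group and NS replicate 3 is the highest.

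Within the ribosomal protein counts, the small subunit genes had 50.5% ± 0.37 in RA, 48.0% ± 1.09 in ND and 50.1% ± 0.32 in Sorb300, against 48.8% ± 0.17 in NS (SD, n = 3 each). Every RA library (50.3% to 51.0%) and every Sorb300 library (49.8% to 50.5%) was above the 3 NS libraries (48.6% to 48.9%), while the ND libraries overlapped them. The toxicant libraries ran from 48.1% to 50.05%, and some of them were also above NS, among them PFOA60 libraries 2 and 3 (49.4% and 50.0%), PFOA100 libraries 2 and 3 (49.5% and 49.7%) and Cort10 library 3 (50.05%).

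Retinoic acid without LIF lowered nearly the whole family. Of 74 genes tested, 71 fell in RA relative to NS and none rose (quasi-likelihood test of edgeR, Benjamini-Hochberg adjusted p under 0.05), in 42 of 44 large subunit and 29 of 30 small subunit genes; over all genes tested, 17.2% were called lower and 14.5% higher. The median log2 fold change was -1.11, against 0.01 over all genes tested, and single genes ranged from -1.54 to -0.70. The SD among the 74 log2 fold changes was 0.18 and their median SE was 0.20. The genes were measured in the same libraries, so an SD near the SE does not show that they fell evenly. In 71 genes every RA library lay below every NS library, which held for 22.2% of all genes tested. In bulk RNA, fewer cells of a type and less RNA per cell cannot be told apart.

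The smallest adjusted p was that of Rpl6, a large subunit protein. Rpl6 had 371, 369 and 455 CPM in RA libraries, against 926, 831 and 1271 CPM in NS libraries. Its log2 fold change was -1.32 ± 0.17 (SE, adjusted p = 1.86e-07, edgeR), and no RA library reached the lowest NS library.
Rpl12, which sits at the base of the stalk, had 847, 1042 and 1075 CPM in RA libraries and 2501, 2180 and 3153 CPM in NS libraries, a log2 fold change of -1.39 ± 0.18 (SE, adjusted p = 2.17e-07). Rpl3, near the peptidyl transferase centre, had 411, 467 and 449 CPM in RA, against 1181, 950 and 1389 CPM in NS. Both pairs of groups were separate by a wide margin, and Rpl3 fell by 1.39 on the log2 scale (SE 0.19, adjusted p = 7.51e-07).
Rpl4, a protein of the exit tunnel, had 2055, 2223 and 2459 CPM in RA and 4716, 4502 and 6989 CPM in NS, with a log2 fold change of -1.23 (SE 0.17; adjusted p = 7.76e-07). Rps18, in the head of the small subunit, had 548, 687 and 643 CPM in RA and 1422, 1397 and 1950 CPM in NS, a log2 fold change of -1.31 (SE 0.18, adjusted p = 8.64e-07). For these genes, too, no RA library came near the NS range. Further large falls were those of Rps2, a protein at the mRNA entry site, by 1.54, and of Rpl8 by 1.38 on the log2 scale.

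The stalk proteins, which recruit elongation factors to the ribosome, fell in RA by 1.01 (Rplp0), 1.16 (Rplp1) and 1.27 (Rplp2) on the log2 scale. The 5S particle proteins Rpl5 and Rpl11, which bind Mdm2, fell by 0.93 and 1.33. Among small subunit proteins, Rpsa fell by 0.99, Rps4x by 0.83, Rps26 by 0.92, Rps27 by 0.82 and Rps19, the gene most often mutated in Diamond-Blackfan anaemia, by 0.91. Rps27a, made as a fusion with ubiquitin, fell by 1.10. In the large subunit, Rpl10, which joins late in assembly, fell by 1.20, Rpl13a by 1.31, Rpl22 by 1.11, the exit tunnel protein Rpl39 by 1.27, the very small Rpl41 by 0.94 and Rpl38, which in mouse embryos supports translation of Hox mRNAs, by 1.20. All of these passed the test, with adjusted p of at most 0.00171; Rps27 was not called without the replicate number in the fit (adjusted p = 0.0640). Not called in RA were Rpl15 (-1.07 ± 0.53 SE), Rps6 (-1.04 ± 0.51 SE) and Rpl29 (-0.90 ± 0.56 SE); they had the largest SE of the family and were those whose RA and NS libraries overlapped. Genes with and without a C and T run over the annotated start had median log2 fold changes of -1.14 (16 genes) and -1.11 (38 genes).

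**Figure D2:**
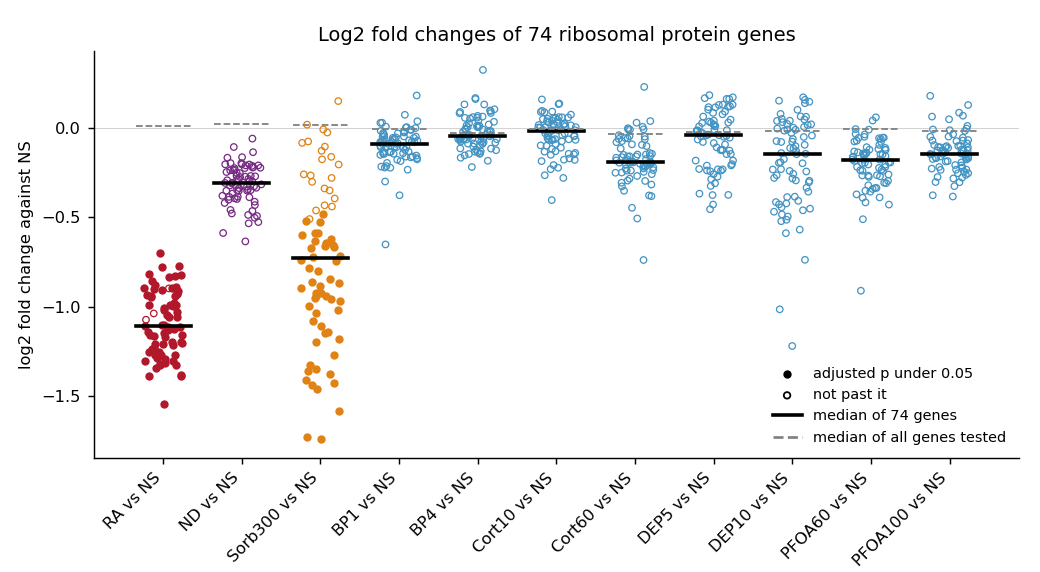
Log2 fold change against NS (y axis) of 74 ribosomal protein genes in 11 comparisons (x axis); filled points passed adjusted p under 0.05, black lines are medians of the 74 genes and dashed lines medians of all genes tested. The RA points form a tight cluster around -1.11, the Sorb300 points spread from -1.74 to 0.15, and no ND or toxicant point was called; their medians lie from -0.31 to -0.02, with single points down to -1.22 (Rps6 in DEP10).

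After LIF withdrawal alone no single gene passed the test, although all estimates were below 0. In ND relative to NS, 0 of 74 genes were called by edgeR and 1 by DESeq2's Wald test, where 4.11% of all genes tested were called by edgeR; at an unadjusted p under 0.05, 17 of 74 were lower, against 9.41% of all genes tested. All 74 log2 fold changes were below 0, as were 48.2% over all genes tested, with a median of -0.31 against 0.02 over all genes and a range from -0.63 to -0.06. Fitted on the ND and NS libraries alone, 15 genes were called, all lower. The share of all genes called in that fit, or by DESeq2, is not given here, so these counts are no result about the family. In 10 of 74 genes every ND library lay below every NS library, against 11.5% of all genes tested. Within replicate numbers 1, 2 and 3 the median difference between the ND and the NS library was -0.32, -0.24 and -0.45. In 68 of 74 genes the 95% interval of the log2 fold change lay above -1.

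The largest estimate was that of Rps29, with 1569, 2033 and 2812 CPM in ND, against 2920, 2917 and 3969 CPM in NS, with a log2 fold change of -0.63 (SE 0.20; adjusted p = 0.0546). Rps14, whose loss underlies the 5q- syndrome in humans, had 3022, 4671 and 6437 CPM in ND and 6231, 6069 and 8259 CPM in NS, a log2 fold change of -0.59 (SE 0.23, adjusted p = 0.138). Rpl35a had 210, 332 and 334 CPM in ND and 377, 348 and 563 CPM in NS, a log2 fold change of -0.53 (SE 0.28, adjusted p = 0.291). The Rps29 and Rpl35a libraries of the groups did not overlap, but those of Rps14 did. Estimates for the stalk genes were -0.33 (Rplp0), -0.49 (Rplp1) and -0.50 (Rplp2), and those for Rpl5 and Rpl11 were -0.11 and -0.27.

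Retinoic acid added to LIF withdrawal was tested directly by setting RA against ND, since each had been set against the same NS libraries. In RA relative to ND 65 of 74 genes fell and none rose, where 13.8% of all genes tested were called lower and 10.6% higher. The median log2 fold change was -0.77, against -0.04 over all genes. Without the replicate number as a block the count was 25, and it was 37 without ND replicate 1, 43 without RA replicate 3 and 39 without all replicate 3 libraries. How many of all genes were called in these fits is not given here. Rpl6 fell by 1.16 on the log2 scale (SE 0.17, adjusted p = 2.3e-06), with the RA libraries given above and 918, 784 and 937 CPM in ND. Rpl12 fell by 1.09, Rpl4 by 1.01, Rps2 by 1.30, Rpl3 by 1.04, Rpl38 by 1.00, Rpl39 by 1.07 and Rpl8 by 1.03. These 8 genes were called without the block as well. In 71 of 74 genes every RA library lay below every ND library, against 23.8% of all genes tested.

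Sorbitol lowered the family less evenly. In Sorb300 relative to NS, 52 of 74 genes fell and none rose, 33 of 44 in the large and 19 of 30 in the small subunit, where 18.1% of all genes tested were called lower and 18.8% higher. The median log2 fold change was -0.73, against 0.01 over all genes, but single genes ranged from -1.74 to 0.15 with an SD of 0.45. In 49 genes every Sorb300 library lay below every NS library, against 17.7% of all genes tested. RA and Sorb300 were set against the same NS libraries. The tag L002 is in the column headers of RA, ND and NS and not in those of Sorb300 or the toxicants; what it marks is not stated, and for these groups it cannot be told apart from the treatment. Fitted without the replicate block the count was 36, and fitted on the libraries of Sorb300 and NS alone it was 21. For these fits the share of all genes called is not given here.

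Rpl4 had 2165, 1983 and 1838 CPM in Sorb300, against 4716, 4502 and 6989 CPM in NS, with a log2 fold change of -1.38 (SE 0.17; adjusted p = 9.71e-08, edgeR). Rpl22, a protein with an added role in T cell development, had 1158, 1062 and 935 CPM in Sorb300 and 2488, 2623 and 3581 CPM in NS, a log2 fold change of -1.41 (SE 0.18, adjusted p = 1.29e-07). Rpl31 had 1079, 930 and 1052 CPM in Sorb300 and 2244, 2406 and 3463 CPM in NS, a log2 fold change of -1.36 (SE 0.18, adjusted p = 1.93e-07). In these genes the Sorb300 libraries were close to one another and far below NS.
Rps20 had 3875, 2840 and 3342 CPM in Sorb300 and 7998, 7901 and 12206 CPM in NS, a log2 fold change of -1.43 (SE 0.19, adjusted p = 2.06e-07). Rpl5 had 150, 83.3 and 72.5 CPM in Sorb300 and 275, 347 and 465 CPM in NS, a log2 fold change of -1.74 (SE 0.24, adjusted p = 3.32e-07). The Rpl5 libraries of Sorb300 were not alike, the first being higher than the other two. Rpl7 fell by 1.73, Rpl36a by 1.46 and Rpl23, another protein that binds Mdm2, by 1.58 on the log2 scale.

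Among genes chosen for a known role, Rpl38 (-1.15), Rpl39 (-0.99), Rps26 (-0.97), Rps27a (-0.96), Rpl10 (-0.94), Rpl11 (-0.85), Rplp1 (-0.67) and Rps27 (-0.60) also fell in Sorb300. Some of these calls were lost in part of the 13 alternatives: Rps27 in 5, Rps27a and Rplp1 in 3 each, Rpl11 in 2 and Rpl10 in 1. Without the replicate block the adjusted p was 0.145 for Rps27, 0.166 for Rplp1 and 0.0547 for Rpl11. Without Sorb300 replicate 3 it was 0.173 for Rps27 and 0.0588 for Rps27a, and without NS replicate 1 it was 0.134 for Rps27 and 0.0561 for Rplp1. Several others did not pass the test. Rplp0 had a log2 fold change of -0.16 ± 0.21 (SE), Rpl13a of -0.08 ± 0.21, Rps4x of -0.08 ± 0.16, Rpl41 of -0.20 ± 0.22, Rplp2 of -0.44 ± 0.19, Rpsa of -0.46 ± 0.20, Rps19 of -0.43 ± 0.19 and Rps6 of -0.17 ± 0.50. For all of these but Rps6 the 95% interval lay above -1.

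**Figure D3:**
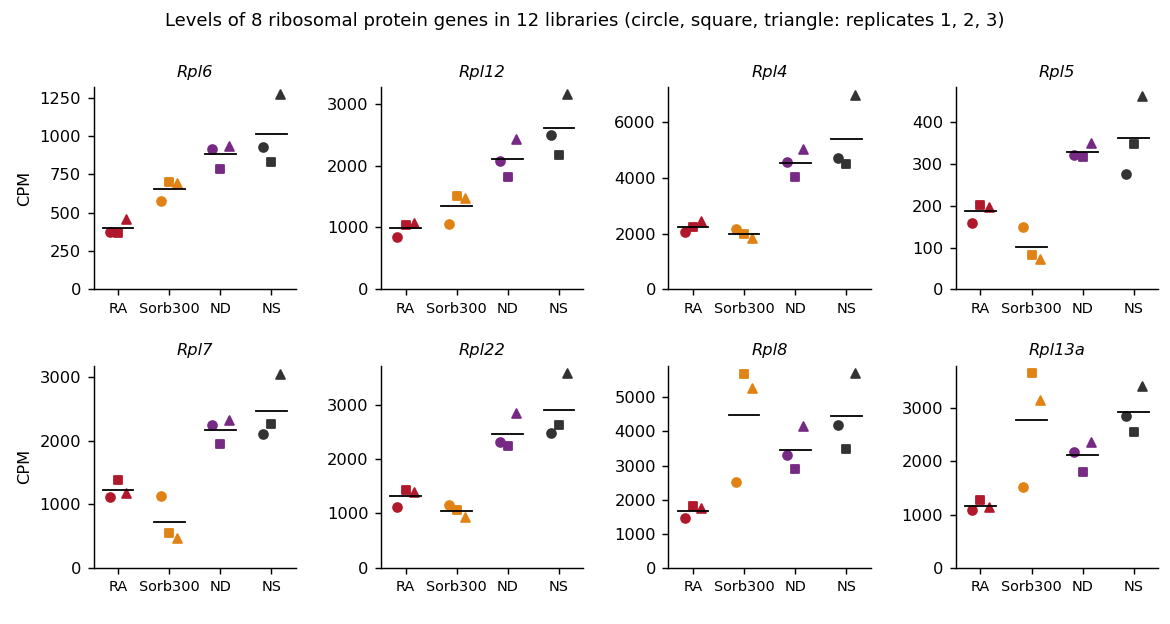
CPM (y axis, from 0) of 8 ribosomal protein genes in the RA, Sorb300, ND and NS libraries (x axis), with the group mean as a line. In all panels the RA libraries lie below the ND and NS libraries; for Rpl5 and Rpl7 Sorb300 libraries 2 and 3 are the lowest of all, and for Rpl8 and Rpl13a they reach the NS range while Sorb300 library 1 does not.

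The 3 Sorb300 libraries differed among themselves, and library 1 stood apart. Across all genes tested, log2 CPM correlated at 0.951 between Sorb300 libraries 2 and 3, and at 0.918 and 0.912 between library 1 and these. Against the NS mean, the median log2 difference of the 74 genes was -0.95, -0.56 and -0.74 in Sorb300 libraries 1, 2 and 3, and the SD among genes was 0.33, 0.66 and 0.65. In libraries 2 and 3 the size of the difference went with base composition: across 73 genes with a known transcript, Spearman's rho between the difference and transcript GC content was -0.03 in library 1 and 0.61 in both others, against -0.19, 0.39 and 0.32 over 11931 genes tested. These are correlations across genes of 1 library, and genes are not independent replicates.

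Among the genes with the lowest GC content (24 genes, 41.3% to 49.8%), the median difference from NS was -0.98 and -1.11 in Sorb300 libraries 2 and 3, and 22 of the 24 fell. Among those with the highest GC content (24 genes, 54.6% to 60.8%), it was -0.98, -0.23 and -0.31 in libraries 1, 2 and 3, and 11 of the 24 fell. In library 1 the genes of high GC content were as low as those of low GC content in library 2. These sets of genes had median log2 fold changes of -1.07 and -1.15 in RA relative to NS. The part of base composition in the sorbitol result was not tested. Over all genes tested, of any GC content, 18.1% were called lower in Sorb300. Without Sorb300 replicate 1 the count of fallen genes was 48, without replicate 2 it was 65 and without replicate 3 it was 38. The share of all genes called in these 3 fits is not given here.

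**Figure D4:**
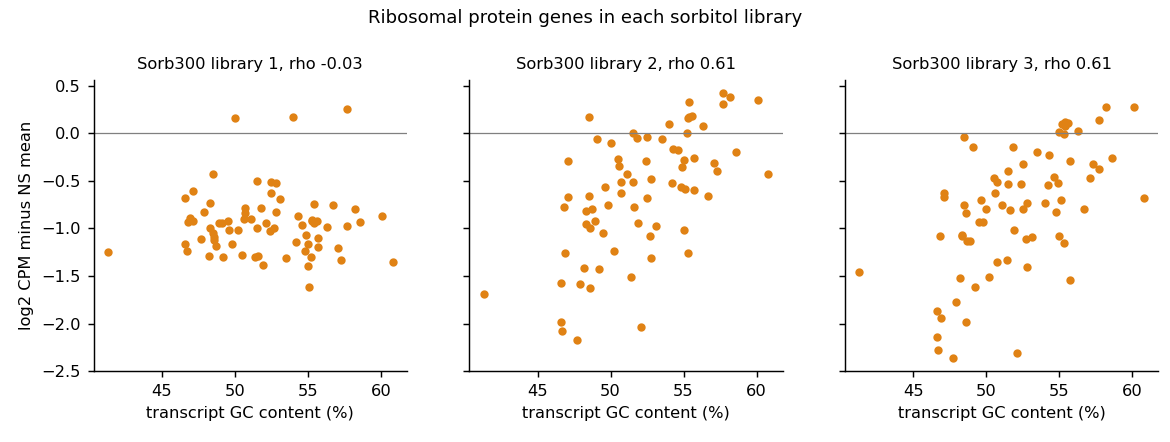
Difference of log2 CPM between each Sorb300 library and the NS mean (y axis) against transcript GC content (x axis, %) for 73 ribosomal protein genes, 1 panel per library. Points of library 1 have a median of -0.95 and no trend with GC content (rho -0.03), while those of libraries 2 and 3 run from -2.17 and -2.36 up to 0.43 and 0.28 and are higher at high GC content.

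RA and Sorb300 were also set against each other, a comparison added after the values of both against NS had been seen. The header tag L002 is on the RA columns and not on those of Sorb300, so what it marks cannot be told apart from the treatment here either. In RA relative to Sorb300, 30 of 74 genes were lower and 6 higher, where 23.7% of all genes tested were called lower and 21.3% higher. Rpl5 had 158, 203 and 198 CPM in RA and 150, 83.3 and 72.5 CPM in Sorb300 (log2 fold change 0.81 ± 0.23 SE, adjusted p = 0.0044, edgeR). Rpl7 had 1109, 1388 and 1183 CPM in RA and 1131, 541 and 473 CPM in Sorb300 (0.75 ± 0.23 SE, adjusted p = 0.00757). For both genes Sorb300 library 1 was in or near the RA range and the other 2 libraries were far below it. The other 4 higher in RA were Rpl36a, Rpl23, Rpl31 and Rps3a, and these calls were lost in 5 or 6 of 13 alternatives. The Rpl5 call was lost in 1 of the 13 and the Rpl7 call in 2.
Rpl8 had 1451, 1809 and 1752 CPM in RA and 2508, 5687 and 5276 CPM in Sorb300 (-1.40 ± 0.20 SE, adjusted p = 6.08e-07). Rpl18 had 639, 692 and 814 CPM in RA and 913, 2227 and 1986 CPM in Sorb300 (-1.24 ± 0.21 SE, adjusted p = 7.27e-06). Rpl13a had 1080, 1279 and 1136 CPM in RA and 1517, 3662 and 3155 CPM in Sorb300 (-1.22 ± 0.21 SE, adjusted p = 1.01e-05). Every Sorb300 library was above every RA library for these 3 genes, with library 1 closest to RA. Rps2, Rpl14 and Rps4x were lower in RA by 1.28, 0.91 and 0.76 on the log2 scale. Without the replicate block the comparison called 13 genes lower and 2 higher, without Sorb300 replicate 2 it called 10 lower and 4 higher, and without RA replicate 3 it called 15 lower and 7 higher. Shares over all genes in these fits are not given here.

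No ribosomal protein gene passed the test in any toxicant group. With edgeR and with DESeq2's Wald test, 0 of 74 genes were called in BP1, BP4, Cort10, Cort60, DEP5, DEP10, PFOA60 and PFOA100 relative to NS, and 0 in the mean of the 8 groups relative to NS. The background was 0.348% of all genes tested for PFOA60 and for the mean of the 8 groups, 0.0445% for Cort60 and 0% for the other 6 groups. At an unadjusted p under 0.05, 14 genes were lower in DEP10, 1 in DEP5, 3 in the mean of the 8 groups and 0 in each of the others. The share of all genes tested that were lower at this p was 3.65% in DEP10, 3.16% in DEP5, 5.62% in the mean of the 8, 1.86% in BP1, 2.44% in BP4, 2.83% in Cort10, 4.99% in Cort60, 6.22% in PFOA60 and 4.1% in PFOA100. Median log2 fold changes were -0.09 (BP1), -0.04 (BP4), -0.02 (Cort10), -0.19 (Cort60), -0.04 (DEP5), -0.14 (DEP10), -0.18 (PFOA60) and -0.14 (PFOA100), and -0.11 for the mean of all 8. The 95% interval lay above a log2 fold change of -1 for 66 of 74 genes in DEP10, for 70 in Cort60 and PFOA60, for 71 in BP1, Cort10 and DEP5, for 72 in PFOA100 and for 73 in BP4.

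In DEP10 the genes farthest from 0 were Rps6, Rpl15 and Rpl10. Rps6, the substrate of S6 kinase, had 21.95, 29.6 and 67.2 CPM in DEP10, against 101, 39.6 and 128 CPM in NS, with a log2 fold change of -1.22 (SE 0.52; adjusted p = 0.694). Rpl15 had 26.5, 69.9 and 115 CPM in DEP10 and 139, 90.4 and 171 CPM in NS, a log2 fold change of -1.01 (SE 0.54, adjusted p = 0.750). Rpl10 had 126, 193 and 268 CPM in DEP10 and 328, 267 and 349 CPM in NS, a log2 fold change of -0.74 (SE 0.22, adjusted p = 0.528). The groups overlapped in all 3 genes. In 6 of the other toxicant groups the gene farthest from 0 was Rpl29 in BP1 (-0.65), BP4 (0.33), Cort60 (-0.74) and PFOA60 (-0.91), Rpl15 in Cort10 (-0.40) and Rpl10 in DEP5 (-0.45).

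No difference between doses passed the test either. With edgeR and DESeq2, 0 of 74 genes were called in BP4 relative to BP1, Cort60 relative to Cort10, DEP10 relative to DEP5, PFOA100 relative to PFOA60, or the mean of the 4 higher doses relative to the mean of the 4 lower ones, and 0 had an unadjusted p under 0.05. Over all genes tested, 0% were called in each, and 0.756%, 3.23%, 1.59%, 2.44% and 2.03% had an unadjusted p under 0.05, in that order. Median log2 fold changes were 0.06, -0.14, -0.12, 0.03 and -0.04, in the same order. For the mean over the 4 toxicants the 95% interval lay within -1 and 1 for all 74 genes tested.

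Ribosomal protein genes also differed between the replicate numbers. In replicate 3 relative to the mean of replicates 1 and 2, with the group in the fit, all 74 genes tested were higher, where 16.5% of all genes tested were called higher and 19.4% lower (edgeR). The median log2 difference was 0.53, against -0.06 over all genes, with a range from 0.22 (Rps4x) to 0.77 (Rpl17). That replicate 3 libraries hold more ribosomal protein counts was known from earlier results of these data, and nothing in the labels says how the replicate numbers differ. The 3 numbers are in every group, so that the comparisons between groups are balanced for them.

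Rps3, the gene with the smallest adjusted p, had 4760 to 7139 CPM in the 8 toxicant libraries of replicate 3, against 3069 to 3876 CPM in the 16 toxicant libraries of replicates 1 and 2. It had 5469 CPM in replicate 3 of NS, against 4107 and 3466 CPM in replicates 1 and 2 of NS. Replicate 3 was the highest of its group in all of these, but in Sorb300 it had 3877 CPM, against 2215 and 4105 CPM in replicates 1 and 2. Rps3 rose by 0.64 on the log2 scale (SE 0.08, adjusted p = 1.3e-07), Rps18 by 0.63, Rpl39 by 0.67, Rplp1 by 0.65 and Rpl5 by 0.41.
The size of the step differed between groups, without a test of that difference. The median log2 difference was 0.12 in RA, 0.28 in ND, 0.06 in Sorb300, 0.58 in BP1, 0.67 in BP4, 0.81 in Cort10, 0.29 in Cort60, 0.84 in DEP5, 0.68 in DEP10, 0.69 in PFOA60 and 0.83 in PFOA100, against 0.47 in NS. It was smallest in RA and Sorb300. Within replicate numbers 1, 2 and 3, the median log2 difference of the RA library from the NS library was -1.15, -0.81 and -1.35, and that of the Sorb300 library was -0.89, -0.34 and -1.10, all below 0.

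**Figure D5:**
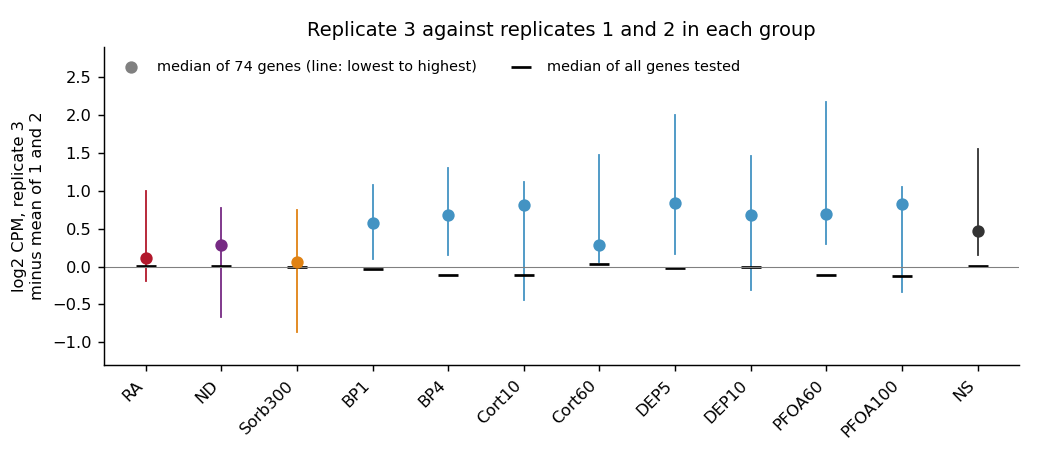
Difference of log2 CPM between replicate 3 and the mean of replicates 1 and 2 (y axis) in each of 12 groups (x axis); points are medians of 74 ribosomal protein genes, lines their range and dashes the median of all genes tested. Medians lie from 0.47 to 0.84 in NS and in all toxicant groups but Cort60 (0.29), and at 0.12 or below in RA and Sorb300.

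The ribosomal proteins outside the symbol pattern, and paralogs of the family, moved with it in part. Of 11 such genes tested, 7 fell in RA relative to NS and none rose, and 4 fell and 1 rose in Sorb300. Over all genes tested, 17.2% were lower and 14.5% higher in RA, and 18.1% lower and 18.8% higher in Sorb300. Gnb2l1, which encodes the small subunit scaffold Rack1, fell by 1.10 in RA and the paralog Rps27l by 0.94 on the log2 scale. In Sorb300 the paralog Rpl22l1 fell by 1.40 and Rpl10l rose by 1.15. Reads of a paralog and its parent can be mixed up in counting, so these values are uncertain.

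Translation elongation genes and others with TOP mRNAs were counted beside the family. Of 24 tested, 20 fell in RA (median log2 fold change -1.02), 15 in Sorb300 (-0.70) and 0 in ND (-0.19, edgeR), and none rose in RA or Sorb300, where 17.2% of all genes tested were lower in RA, 18.1% lower in Sorb300 and 4.11% called in either direction in ND. In RA, the poly(A)-binding protein Pabpc4 fell by 1.49 and the exchange factor subunits Eef1b2 and Eef1g by 1.20 and 1.34 on the log2 scale. In Sorb300, Hnrnpa1 fell by 1.74, Naca, of the nascent chain complex, by 1.38 and the nucleolar protein Npm1 by 1.52. In replicate 3, 19 of the 24 were higher, against 16.5% of all genes tested, led by Eef1a1 (log2 difference 0.63 ± 0.08 SE).

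Initiation factors moved in both directions. In RA, 13 of 25 fell and 1 rose, against 17.2% lower and 14.5% higher over all genes tested. In Sorb300 5 fell and 7 rose, against 18.1% lower and 18.8% higher, so that the count of fallen factors was near that of all genes. Eif3c, Eif1 and Eif4a1 fell by 0.98, 0.96 and 1.05 in RA, and in Sorb300 Eif2b3 fell by 1.05 and Eif2b4 rose by 1.72 on the log2 scale, while Eif1ax was lower by 3.48-fold. A list of chaperones and import factors of ribosomal proteins had 4 of 12 lower and none higher in RA, and 3 lower and 4 higher in Sorb300. These are few genes beside the same shares over all genes tested (17.2% lower and 14.5% higher in RA, 18.1% and 18.8% in Sorb300). Ipo5 was lower by 0.84 in RA and by 0.88 in Sorb300, and Grwd1 rose by 1.69 in Sorb300.

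Among 24 genes of mTORC1, Larp1 and Myc control, 4 rose and 3 fell in RA, and 6 rose and 3 fell in Sorb300. Over all genes tested 14.5% were higher and 17.2% lower in RA, and 18.8% higher and 18.1% lower in Sorb300. With so few genes, neither the RA nor the Sorb300 counts are a result about this list. Eif4ebp1, a target of mTORC1, fell by 1.29 in RA, Cnbp, which binds TOP mRNAs, fell by 0.82 and Yy1 rose by 0.84 on the log2 scale. Myc had 12.5 ± 1.79 CPM in Sorb300, against 0.968 ± 1.47 CPM in NS (SD, n = 3 each), where NS was close to the level of 3 counts (log2 fold change 3.90 ± 1.09 SE, adjusted p = 0.00469). In RA Myc had 3.69 ± 2.65 CPM (2.08 ± 1.08 SE, adjusted p = 0.140), and Larp1 had a log2 fold change of -0.50 ± 0.20 (SE, adjusted p = 0.0580). These are mRNA levels, and the activity of mTORC1 or Larp1 was not measured.

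Markers of cell identity also changed in RA. All 10 embryonic stem cell markers fell there, with a median log2 fold change of -2.34, and 10 of 11 extraembryonic endoderm markers rose, their sum being 752 to 1452 CPM in RA and 205 to 299 CPM in NS. Of 10 fibroblast markers tested, 6 rose and 1 fell in RA, with sums of 408 to 524 CPM in RA and 55.1 to 110 CPM in NS. Dcn, a defining fibroblast gene, averaged 11.2 ± 5.18 CPM in RA and 0.655 ± 1.14 CPM in NS (SD, n = 3 each), and Ttr, of the endoderm list, was at 0 in NS. In ND, where no ribosomal protein gene was called, 4 of 10 stem cell markers fell, led by Klf4 (-1.90) and Esrrb (-1.61). In Sorb300, 3 of the 10 rose and 1 fell, with sums of 3612 to 4232 CPM in Sorb300 against 3502 to 4333 CPM in NS. Over all genes tested, 17.2% were lower and 14.5% higher in RA, and 18.1% lower and 18.8% higher in Sorb300. In ND 4.11% of all genes tested were called in either direction. With so few markers, the Sorb300 stem cell counts are no result about that list. Fibroblast markers summed to 35.1 to 45.9 CPM in Sorb300, with Dcn, Lum and Postn at 0, and 6 of 11 extraembryonic endoderm markers rose and 1 fell there, with sums of 235 to 510 CPM. The 5 neural markers summed to 113 to 320 CPM in Sorb300 and 63.3 to 110 CPM in NS; of 4 tested, Tubb3 rose by 2.15 and Nes fell by 1.60 on the log2 scale. In RA the neural sum was 38.5 to 86.1 CPM, and 1 of the 4, Tubb3, fell. None of the 4 was called higher in RA, but their median log2 fold change was 1.15. The part of a change in cell types in the fall of ribosomal protein genes was not tested.

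In the authors' deposited tables, at their FDR under 0.05, 63 of the 75 genes were lower and none higher in RA relative to NS. In Sorb300 36 were lower and none higher, and 0 were called in the other 9 comparisons. Over all genes (21516 listed), without regard to direction, 3153 were called in RA, 4011 in Sorb300 and 257 in ND. The share of all genes called lower in the deposited tables is not given here, so the counts by direction have no background beside them. In the toxicant groups the count over all genes ran from 0 in Cort10, DEP5 and DEP10 to 60 in PFOA60.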

How the data were processed

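Gene counts of 36 libraries (Lexogen QuantSeq 3' protocol, per the labels' protocols) stand in 11 deposited tables, 1 per treated group with the same 3 NS columns; the counts are the authors' read counts per gene, with no normalization. The authors' deposited log2 fold changes and FDR (adjusted p-values) were used only to count the ribosomal protein genes, and all genes, at FDR under 0.05. Per the submitters' processing notes, CASAVA 1.8.2, STAR, HTSeq and edgeR were used with build mm9; settings, strand and the treatment of multiply mapped reads are not stated in the sources used here. Counting at the 3' end gives 1 tag per transcript and depends on the annotated end and on priming.

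The members and gene lists were chosen with earlier results of these data known. Genes were kept by filterByExpr (13498 of 21516) and fitted in edgeR 4.0.16 (TMM, glmQLFit robust, group and replicate number as terms, all 36 libraries, residual df 22, common BCV 0.253). The SE of a log2 fold change comes from its F statistic, and 95% intervals use t at 22 df. CPM use TMM-scaled totals, log2 CPM a prior count of 2. Alternatives were other scalings, no filter, DESeq2 1.42.0, other sets of libraries, and leaving out each library. Named were, per comparison, up to 8 called genes in each direction by smallest adjusted p (with fewer than 3 called, the 3 farthest from 0) and 18 genes of fixed role; from each gene list, up to 3 called genes. Rpl17, Rpl29, Rpl15, Rpl34, Myc, Larp1, Klf4, Esrrb, Dcn and Ttr were otherwise named after their values were seen. GC content is the median over GENCODE M21 coding transcripts.

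Replicate numbers were checked by the correlation of libraries' deviations from group means: every same-numbered pair exceeded 0.1 in 10 of 16 comparisons, but not in RA, Sorb300, Cort60 or PFOA100 against NS, RA against ND or Cort60 against Cort10, nor in RA against Sorb300, which was added later. The header tag L002 stands on the 9 columns of RA, ND and NS only. If it marks a lane, lane and group cannot be told apart for the other groups against NS, nor for RA against Sorb300. Replicates differed by 5.44 to 69.36 in chi-square per degree of freedom, so no pair of libraries agreed within sampling noise. The fit was also run on simulated data, but the outcome is not given here, so no error rate is stated for it. Wilson intervals cover counting error only. In the main fit the edgeR p-values set a difference against a spread estimated over all 36 libraries. Values of some genes that the rule names are not reported here.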

Additional observations from a re-analysis of the deposited data

How the results depend on the processing

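In RA relative to NS, 65 to 73 of 74 genes fell under every alternative (67 without the replicate block), 68 to 71 when single libraries were left out. In Sorb300 relative to NS the count was 36 without the replicate block, 21 with the 2 groups only, and 38 to 65 with single libraries left out. In ND relative to NS it was 1 with DESeq2's Wald test and 15 with the 2 groups only, and 0 with any single library left out. In RA relative to ND it was 25 without the replicate block, 39 without the replicate 3 libraries, and 37 to 61 with single libraries left out. In RA relative to Sorb300, added later, the genes called in either direction numbered 36; they were 15 without the replicate block, 11 with the 2 groups only, 14 without the replicate 3 libraries, and 14 to 42 with single libraries left out. In DEP10 relative to DEP5, 1 gene (Rps6, log2 fold change -0.98) was called with the 2 groups only. The count in every other comparison of a toxicant was 0 under every alternative, and the replicate 3 count stayed between 72 and 74. For the alternatives the share of all genes called is not given here, so these counts show only how the main counts depend on the fit. In RA, Sorb300, Cort60 and PFOA100 relative to NS, RA relative to ND or Sorb300, and Cort60 relative to Cort10, same-numbered libraries did not all deviate together, so that counts with the block there rest on the replicate term fitted over all groups. Mean shares moved by less than their SD under every alternative. With 3 libraries a group, the median SE of 0.20 (log2, RA relative to NS) limits what can be said of small changes in single genes, and multiply mapped reads limit the genes with many pseudogenes.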
